A study of Drosophila melanogaster with 6 samples.

Results

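Genes for secreted digestive enzymes were followed in whole Drosophila melanogaster embryos, in 31 of the 15135 rows of a table of TPM (reads per gene length, scaled to a sum of 1000000 in each library). The rows were taken by gene symbol, as the Jonah proteases (12 rows), the Mal-A and Mal-B maltases (10), the amylases Amy-p and Amy-d (2) and the trypsins whose names end in Try (7). The pattern also asked for lysosomal mannosidases by the symbol LMan, but no row carried it. The 6 genes that the reference annotation now calls LManI to LManVI stood in the table under other symbols, and they are described apart from the 31. The annotation holds 8 more genes of the pattern, 4 Jonah genes and 4 trypsin genes, which are not analysed here.

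The fly midgut forms from an anterior and a posterior primordium that migrate toward each other and enclose the yolk, and its enterocytes secrete enzymes into the gut lumen. Amylases cut starch into short sugars, and maltases, which are alpha-glucosidases, release glucose from these. Trypsins cut proteins after lysine or arginine, and Jonah proteases are related serine endopeptidases of the gut. These families are best known from feeding larvae and adults, and many of their genes lie in tandem clusters.

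Libraries of polyadenylated RNA came from whole embryos of about stage 14, 3 labelled wild-type and 3 labelled spo mutant. spo (spook) encodes an enzyme needed to make the steroid hormone ecdysone, and the series set out to find genes that respond to this hormone. The sources used here do not give the spo allele, the way mutant embryos were recognised or the number of embryos per library, and they name no further allele or treatment in either group. The 3 libraries of a genotype are called independent, with no word on separate matings, and a p-value here speaks of the spread from library to library, which may be technical. With whole embryos, fewer midgut cells and less RNA per midgut cell cannot be told apart.

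The depth, rebuilt from the steps of the TPM values, was 50355000 to 73913145 reads per library, and 1 read in a gene of 1 kb was worth 0.0315 to 0.0460 TPM. A count of 0 reads allows up to 3 reads, or 0.0945 to 0.138 TPM in such a gene, by counting error alone. Transcripts of spo stood at 0.944, 0.726 and 0.696 TPM in wild-type replicates 1, 2 and 3 and at 0.610, 0.470 and 0.306 TPM in spo replicates 1, 2 and 3. The library labelled spo replicate 2 stood apart from the other mutants. There the ecdysone-response gene Hr46 had 33.7 TPM, against 4.73 and 4.72 TPM in spo replicates 1 and 3 and 135 to 140 TPM in wild type. Of the 6185 genes called between genotypes below, spo replicate 2 was the mutant library nearest to wild type in 2685 (43.4%).

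Digestive enzyme transcripts were scarce in these embryos. Of the 31 genes, 25 averaged below 1 TPM over the 6 libraries, as did 34.7% of all features, and 10 had at most 10 reads in all 6 libraries together. Only the maltases Mal-A1 and Mal-A5 lay above the median feature, at 7.77 TPM. Mal-A5 and Mal-A1 made up 42.5% and 23.1% of the summed TPM of the 31 genes in wild type, and 26.9% and 41.7% in spo. A library with 0 reads occurred in 13 of the 31 genes, 8 Jonah genes and 5 trypsins, and in no maltase or amylase.

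**Figure D1:**
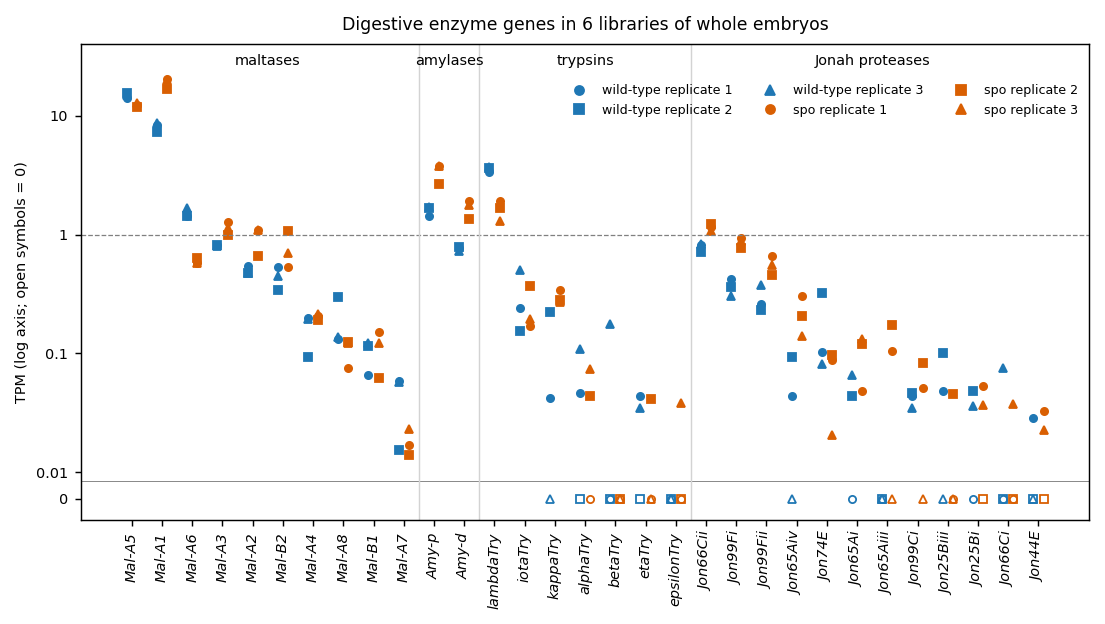
TPM of the 31 digestive enzyme genes in each of 6 libraries, on a log axis, grouped by family and ordered by mean level, with open symbols for 0 and a dashed line at 1 TPM. Mal-A5, Mal-A1, Amy-p and lambdaTry exceed 1 TPM in all 6 libraries, and most Jonah genes and trypsins lie at or near 0.

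Transcripts were compared between genotypes with limma on log2(TPM + 1) over the 10019 features that reached 1 TPM in 3 or more of the libraries, and a gene was called at a Benjamini-Hochberg adjusted p below 0.05. At this threshold 61.7% of all tested features were called, 33.9% higher and 27.9% lower in spo. Of the 31 digestive enzyme genes, 7 entered this test and 24 did not. All 7 were called, but the count carries no weight of its own. Amy-d and Jon66Cii entered through their 3 spo libraries and Mal-A6 through its 3 wild-type libraries. For these genes the filter itself favoured a difference in the direction seen. Mal-A1, Mal-A5, Amy-p and lambdaTry passed 1 TPM in all 6 libraries.

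Both amylase genes were higher in the mutants. Amy-p stood at 1.43, 1.66 and 1.72 TPM in the wild-type libraries and at 3.78, 2.65 and 3.82 TPM in the spo libraries. The groups did not overlap, and spo replicate 2 lay lowest of the mutants. Its mean rose from 1.604 ± 0.152 to 3.42 ± 0.67 TPM (SD, n = 3), a ratio of 2.13 (log2 difference 0.75, SE 0.12, limma adjusted p = 0.00145). Amy-d stood at 0.768, 0.785 and 0.725 TPM in wild type and at 1.92, 1.36 and 1.78 TPM in spo, with the same order of mutant libraries except that replicate 1 was highest. It rose by a ratio of 2.22 (log2 difference 0.60, SE 0.10, limma adjusted p = 0.00154). Without spo replicate 2 the ratios were 2.37 for Amy-p and 2.43 for Amy-d. The pair rests on 60 to 201 reads per library for Amy-p and 30 to 90 for Amy-d.

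The 2 amylase genes lie on 2R in the dm6 build, within 7.7 kb between positions 17118636 and 17126369, on opposite strands with 4460 bases between them. Their coding sequences are near-identical copies, so reads may be shared or lost between them. The ratio of Amy-p to Amy-d within a library was 1.86, 2.12 and 2.37 in wild type and 1.97, 1.94 and 2.15 in spo, overlapping between genotypes (two-sided exact permutation p = 0.7, with 0.1 the smallest that 3 against 3 libraries allow; adjusted p = 0.7 over the 4 ratios computed).

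Of the maltases, Mal-A1 rose and Mal-A5 and Mal-A6 fell. Mal-A1 stood at 8.41, 7.27 and 8.64 TPM in wild type and at 20.3, 16.96 and 19.997 TPM in spo, with no overlap. The mean rose from 8.11 ± 0.73 to 19.1 ± 1.86 TPM, a ratio of 2.36 (log2 difference 1.14, SE 0.09, limma adjusted p = 4.02e-05), and 2.49 without spo replicate 2. Its 316 to 501 reads per wild-type library and 807 to 1152 per spo library make it the gene of the set with most reads after Mal-A5. Mal-A1 shares 82 exonic bases with Cyp4e1, a cytochrome P450 gene on the other strand, and the sources used here do not say whether counting used the strand, so reads from that stretch cannot be told apart. Cyp4e1 fell from 3.93 ± 0.35 to 1.65 ± 0.10 TPM (log2 difference -0.90, SE 0.08, limma adjusted p = 7.29e-05).

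Mal-A5, the most abundant maltase in wild type, fell. It stood at 14.2, 15.6 and 14.9 TPM in wild type and at 12.4, 11.8 and 12.8 TPM in spo (log2 difference -0.25, SE 0.05, limma adjusted p = 0.00423). All 3 mutant libraries lay below all 3 wild-type libraries, but the ratio of wild type to spo was only 1.21. Mal-A6 fell further, from 1.42, 1.45 and 1.69 TPM to 0.583, 0.642 and 0.581 TPM, a ratio of 2.53 (log2 difference -0.65, SE 0.08, limma adjusted p = 0.000411). The order of the 2 leading maltases thus turned over: Mal-A1 was 0.594, 0.465 and 0.580 of Mal-A5 in the wild-type libraries and 1.64, 1.43 and 1.57 of it in the spo libraries. The ratio of Mal-A5 to Mal-A6 went from 8.82 to 10.8 in wild type to 18.4 to 21.98 in spo. These ratios only restate the changes of the single genes, from which the pairs were picked. Their permutation tests, counted among the ratios computed, carry no weight of their own.

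The 8 Mal-A genes fill 24.3 kb of 2R (8449664 to 8473961) with no annotated gene between neighbours other than 2 transposon insertions between Mal-A4 and Mal-A5. At the Mal-A1 end, Mal-A2 and Mal-A3 were also higher in every spo library than in any wild-type library. Mal-A2 stood at 0.547, 0.475 and 0.479 TPM in wild type and at 1.09, 0.667 and 1.11 TPM in spo, and Mal-A3 at 0.821, 0.819 and 0.807 TPM against 1.28, 0.988 and 1.13 TPM. Both lay under the filter. Fitted with all 15135 features they had limma adjusted p of 0.0213 and 0.0321. In the authors' deposited table Mal-A2 was higher (log2 fold change 0.91, false discovery rate 0.000785) and Mal-A3 missed the threshold (0.45, 0.0543). Mal-A4, next in line, overlapped between genotypes at 0.0941 to 0.201 TPM in wild type and 0.190 to 0.213 TPM in spo.

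Mal-A5 and Mal-A6, which fell, are the pair that follows, on the same strand and 65 bases apart. Beyond them Mal-A7 had 1 to 5 reads per library. Mal-A8 stood at 0.132, 0.301 and 0.139 TPM in wild type and 0.0761, 0.125 and 0.122 TPM in spo, from 3 to 13 reads per library. These groups did not overlap by a narrow gap, and Mal-A8 missed the threshold (limma adjusted p = 0.241 without the filter). Along the cluster, therefore, the genes with enough reads to compare were higher in spo from Mal-A1 to Mal-A3 and lower at Mal-A5 and Mal-A6.

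**Figure D2:**
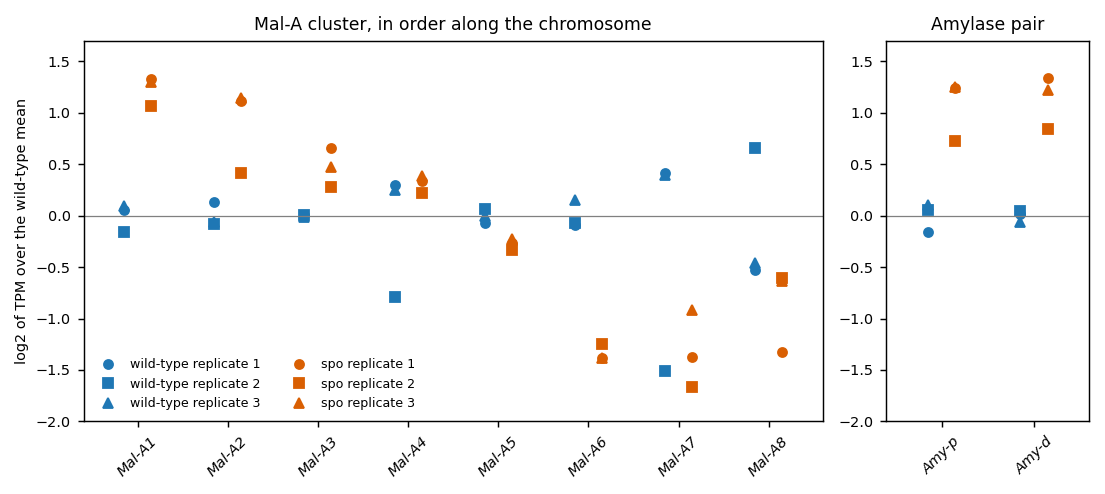
Log2 of each library's TPM over the wild-type mean for the 8 Mal-A genes in chromosomal order and for both amylase genes. The spo libraries lie above all wild-type libraries at Mal-A1, Mal-A2, Mal-A3, Amy-p and Amy-d and below them at Mal-A5, Mal-A6 and, narrowly, Mal-A8, with spo replicate 2 nearest to wild type at Mal-A1, Mal-A2, Mal-A3 and both amylases.

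The Mal-B genes lie on 2L (11847226 to 11852881) inside the span of Pde1c, without sharing exons with it. Mal-B1 had 3 to 7 reads per library. Mal-B2 stood at 0.530, 0.343 and 0.446 TPM in wild type and at 0.534, 1.07 and 0.694 TPM in spo. Here spo replicate 2 was the highest library, and spo replicate 1 barely exceeded the highest wild-type library. The authors' deposited table calls it higher (log2 fold change 0.78, false discovery rate 0.0111), whereas limma without the filter gave an adjusted p of 0.0924. Its ratio of spo to wild type was 1.74 with and 1.40 without spo replicate 2.

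Trypsin genes occupy 20.7 kb of 2R (11336840 to 11357537), and lambdaTry was the only one of the 7 with more than 13 reads in any library. It fell from 3.35, 3.62 and 3.74 TPM to 1.93, 1.66 and 1.30 TPM, a ratio of 2.19 (log2 difference -0.80, SE 0.10, limma adjusted p = 0.000433). The groups did not overlap, and 80 to 113 reads per wild-type library stood against 39 to 42 per spo library. Its neighbour kappaTry, on the other strand and 5 bases away, went the other way, with wild-type libraries of 1, 5 and 0 reads and spo libraries of 7, 7 and 8 reads. The authors' deposited table calls kappaTry higher (log2 fold change 1.79, false discovery rate 0.024), and limma without the filter gave an adjusted p of 0.0353.

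The other 5 trypsin genes were at the edge of detection, with iotaTry at 3 to 13 reads per library and overlapping groups. alphaTry had 0 to 3 reads per library, etaTry at most 1, and epsilonTry 1 read in all, in spo replicate 3. All 6 reads of betaTry came from wild-type replicate 3, and the other 5 libraries had 0. betaTry and some of its neighbours are near-identical in sequence, so its reads may belong to a copy.

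Jonah genes were low throughout, and the 3 with most reads stood higher in spo. Jon66Cii stood at 0.815, 0.709 and 0.835 TPM in wild type and at 1.16, 1.23 and 1.07 TPM in spo, with no overlap, on 14 to 28 reads per library. Its log2 difference of 0.27 (SE 0.08) had a limma adjusted p of 0.0227. The call was lost without wild-type replicate 1 (0.0503) or 2 (0.074) and without spo replicate 1 (0.0603) or 2 (0.0535), and the authors' deposited table does not call it (log2 fold change 0.52, false discovery rate 0.119).

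Jon99Fi and Jon99Fii, neighbours on 3R with 1034 bases between them, lay under the filter. Jon99Fi stood at 0.427, 0.360 and 0.304 TPM in wild type and at 0.938, 0.768 and 0.883 TPM in spo, from 8 to 10 and 19 to 26 reads per library. Jon99Fii stood at 0.262, 0.230 and 0.379 TPM against 0.656, 0.455 and 0.555 TPM. The libraries of both genes separated by genotype, with limma adjusted p of 0.00107 and 0.0184 when no filter was applied. The authors' deposited table calls Jon99Fi (log2 fold change 1.23, false discovery rate 0.00102) and not Jon99Fii (0.85, 0.0712).

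In the Jon65A group on 3L, reads appeared mainly in the mutants. Jon65Aiv had wild-type libraries of 1, 2 and 0 reads and spo libraries of 6, 5 and 4 reads, and Jon65Aiii had 0 in all wild-type libraries and 2, 4 and 0 in spo. The authors' deposited table calls both higher (false discovery rates 0.0181 and 0.0274), and limma without the filter calls Jon65Aiv (adjusted p = 0.0247) and not Jon65Aiii (0.138). Jon65Ai had 0 to 4 reads per library. The remaining Jonah genes, Jon25Bi, Jon25Biii, Jon44E, Jon66Ci, Jon74E and Jon99Ci, had 0 to 12 reads per library with overlapping groups. Jon74E, at 1 to 12 reads, was counted over a gene model longer than the annotated one.

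**Figure D3:**
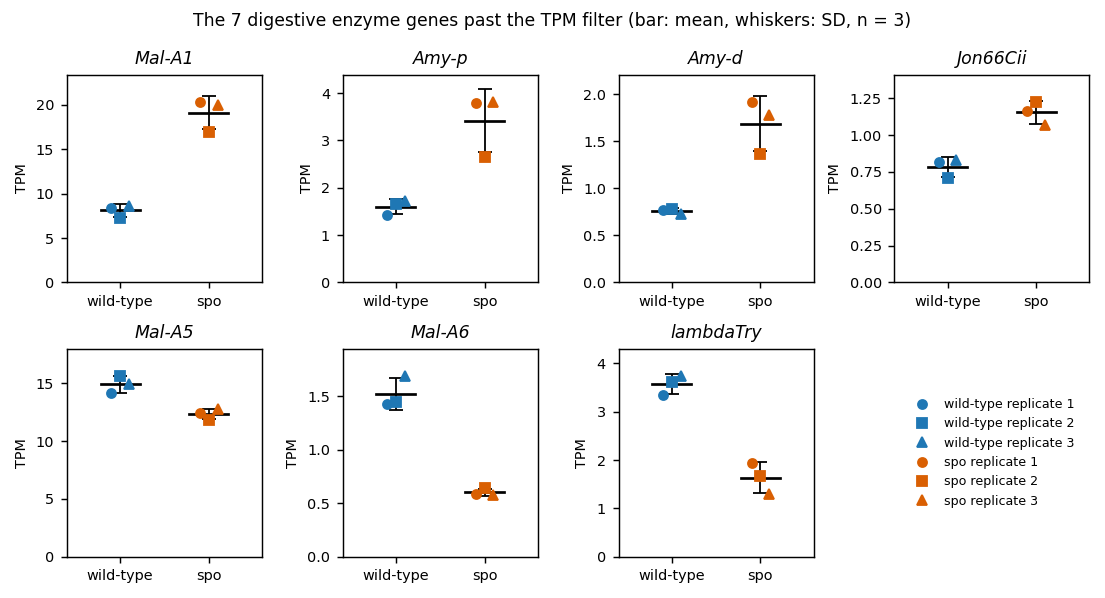
TPM of the 7 digestive enzyme genes that passed the filter, by genotype, with each library as a point, the mean as a bar and the SD as whiskers (n = 3, axes from 0). Mal-A1, Amy-p, Amy-d and Jon66Cii are higher and Mal-A5, Mal-A6 and lambdaTry lower in all 3 spo libraries than in any wild-type library.

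Over all 31 genes, the libraries of 15 did not overlap between genotypes, 11 with spo higher and 4 with spo lower. That is 48.4%, against 53.0% of all features, with 28.7% higher and 24.3% lower. Fitted without the filter, 10 of the 31 were called higher and 3 lower (41.9%), where 43.3% of all features were called, 23.4% higher and 19.9% lower. The authors' deposited table calls 9 higher and 3 lower (38.7%) against 43.0% of its features, 21.6% higher and 21.4% lower. The set as a whole was therefore called about as often as all features. The features were not matched for level: 25 of the 31 genes averaged below 1 TPM, against 34.7% of all features. The 10 higher calls without the filter were 4 Jonah genes of 12, 3 maltases of 10, 2 amylases of 2 and 1 trypsin of 7, and the 3 lower calls were 2 maltases and 1 trypsin. A difference between families was not tested.

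Summed by family, amylase TPM averaged 2.36 ± 0.14 in wild type and 5.10 ± 0.95 in spo. The Jonah sum was 1.77, 1.96 and 1.81 TPM in wild type and 3.44, 3.18 and 2.90 TPM in spo. Maltases summed to 26.4, 26.5 and 27.5 TPM against 36.7, 32.6 and 36.8 TPM, a rise in the sum that holds the opposite changes of Mal-A1 and Mal-A5. Trypsins averaged a sum of 4.09 ± 0.43 TPM against 2.24 ± 0.32 TPM, most of it lambdaTry. Among the 11 genes with all spo libraries above wild type, spo replicate 2 was the mutant library nearest to wild type in 7 (63.6%), and among the 4 with all spo libraries below in 2 (50%). The like share over all features whose libraries did not overlap was not computed. Of the 7 genes called in the fit spo replicate 2 was nearest in 4 (57.1%), beside 43.4% of all features called there.

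Of the 6 mannosidase genes outside the symbol rule, LManI and LManII were abundant and the other 4 were as scarce as most Jonah genes and trypsins. LManII, listed as LM408, had 196, 199 and 201 TPM in wild type and 191, 181 and 193 TPM in spo, far above any of the 31 genes. Its log2 difference of -0.08 (SE 0.03, limma adjusted p = 0.0435) was lost without any 1 of the wild-type libraries or without spo replicate 1 (0.0657 to 0.124), without the filter (0.0598) and with voom on rebuilt reads (0.0762). LManI, listed as CG5322, lies beside it on 2L and rose from 28.8, 29.0 and 27.5 TPM to 36.7, 32.1 and 35.9 TPM (log2 difference 0.28, SE 0.05, limma adjusted p = 0.00306). LManIII, LManIV and LManV, listed as CG9463, CG9465 and CG9466, had 0 to 5 reads per library. LManVI, listed as CG9468, had wild-type libraries of 8, 9 and 20 reads and spo libraries of 3, 7 and 1, and the authors' deposited table calls it lower (log2 fold change -1.68, false discovery rate 0.00916), whereas limma without the filter does not (adjusted p = 0.0742).

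GATAe, the GATA factor of the endoderm, averaged 48.9 ± 0.20 TPM in the wild-type libraries against 47.1 ± 0.95 TPM in the mutants (limma adjusted p = 0.107), and was called lower only where libraries were rescaled, by median-of-ratios (0.041) or by the upper quartile (0.0299). Of 26 tested genes of gut identity and structure, many of them also active outside the midgut, 10 rose, 8 fell and 8 were not called (69.2% called, against 61.7% of all tested features), with a median log2 difference of -0.01, against 0.02 over all tested features. The ferritin subunits Fer2LCH and Fer1HCH both rose, Fer2LCH from 489 ± 8.95 to 664 ± 2.58 TPM, while Fer1HCH went from 347 ± 5.53 to 449 ± 9.71 TPM. The unconventional myosin Myo61F fell from 21.2 ± 0.65 to 11.7 ± 0.45 TPM, and the hindgut homeobox gene otp from 54.8 ± 0.26 to 42.8 ± 0.31 TPM. From the same list, mex1 fell from 19.7 ± 0.25 to 13.9 ± 1.35 TPM (limma adjusted p = 0.000719). In contrast, lab rose from 12.7 ± 0.58 to 16.1 ± 0.76 TPM (limma adjusted p = 0.00147). Myo31DF was not called (log2 difference -0.009, SE 0.022, limma adjusted p = 0.738). The homeobox gene exex stood at 30.5 ± 1.10 and 28.2 ± 2.09 TPM (adjusted p = 0.127), and was called lower without spo replicate 2 (0.00789).

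Other digestive hydrolases were mostly as scarce. Of 26 with a row, 16 lay under the filter, 3 of the 10 tested rose and 2 fell, with a median log2 difference of 0.16. That is 50% called, against 61.7% of all tested features. The lipase gene Lip4 rose from 44.9 ± 1.27 to 64.1 ± 6.52 TPM and cathD, an aspartic protease of lysosomes, from 150 ± 2.67 to 191 ± 1.62 TPM. Among lysozymes, LysX rose from 0.955 ± 0.392 to 2.14 ± 0.54 TPM and LysS fell from 1.93 ± 0.05 to 1.26 ± 0.15 TPM. The alpha-glucosidase gene tobi, at 2.88 ± 0.04 and 3.37 ± 0.59 TPM, was not called (adjusted p = 0.218), but was called higher without spo replicate 2 (0.0107). Of 3 tested peritrophic matrix genes, Peritrophin-A rose from 9.73 ± 0.51 to 13.5 ± 1.12 TPM and CG7714 from 0.750 ± 0.374 to 1.48 ± 0.08 TPM, while Gasp, which also builds tracheal and cuticular chitin matrix, fell from 79.7 ± 2.34 to 21.6 ± 2.68 TPM. CG7714 lost its call without wild-type replicate 2 (0.0533) or spo replicate 1 (0.055). It reached 1 TPM in every spo library but in wild type only in replicate 3, so it entered the test through its spo libraries.

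Among 14 known regulators of digestive enzyme genes, 4 rose and 4 fell, with a median log2 difference of -0.01. That is 57.1% called, against 61.7% of all tested features. sug (sugarbabe), a zinc finger factor of the response to dietary sugar, rose from 81.8 ± 1.23 to 101 ± 5.01 TPM. daw (dawdle), an Activin-like ligand, rose from 0.998 ± 0.062 to 2.05 ± 0.21 TPM, and put, a type II receptor for such ligands, from 99.3 ± 1.14 to 124 ± 3.52 TPM. In wild type daw reached 1 TPM only in replicate 2, so it entered the test through its spo libraries. babo, a type I receptor in the same list, fell from 91.6 ± 2.27 to 85.2 ± 2.65 TPM (limma adjusted p = 0.0206). The insulin receptor gene InR fell from 85.9 ± 1.65 to 59.0 ± 5.73 TPM. Smox, a signal transducer below Activin-type receptors, was not called, at 60.9 to 61.6 TPM in wild type and 62.6 to 64.6 TPM in spo (adjusted p = 0.0879), but was called higher with voom on rebuilt reads (0.0473).

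**Figure D4:**
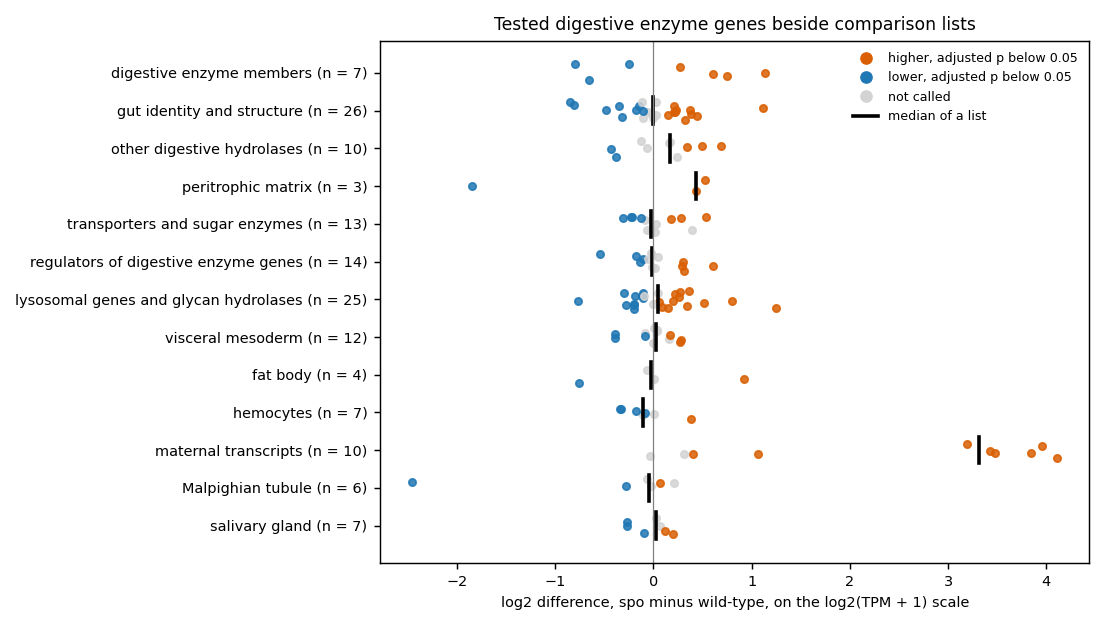
Difference of mean log2(TPM + 1), spo less wild type, for the 7 tested digestive enzyme genes and for each tested gene of 12 comparison lists, coloured by call, with the median of each comparison list as a bar. The digestive enzyme genes run from -0.80 to 1.14, the medians of the gut identity and regulator lists are both -0.01, and maternal transcripts have a median of 3.31.

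Markers of other cells and of the egg were read in the same libraries, where 61.7% of all tested features were called. Of 10 maternal transcripts 8 rose and 0 fell, and their sum was 11.4 to 12.2 TPM in wild type and 150 to 190 TPM in spo, with none at 0 in any library. bcd, swa, tor, twe and osk lay below 1 TPM in every wild-type library. They entered the test through their spo libraries, so the count of 8 carries no weight of its own. wisp, needed at egg activation, rose from 1.11 ± 0.14 to 31.8 ± 3.64 TPM, while nos stood at 1.75 ± 0.38 and 1.68 ± 0.26 TPM (adjusted p = 0.832). Genes listed for visceral mesoderm, the muscle around the gut, numbered 3 higher and 3 lower of 12. They summed to 2747 to 2756 TPM in wild type and 2929 to 3107 TPM in spo, with none at 0. The list is not specific to this muscle, and vkg also stands in the hemocyte list. Most of the visceral mesoderm sum is Act57B, an actin of muscle in general. Without it the sum was 790 to 809 TPM in wild type and 661 to 711 TPM in spo. Fas3 alone averaged 477 TPM of this remainder in wild type and 364 TPM in spo. Besides Fas3, org-1 and mew were called lower, while kirre and Alk were called higher like Act57B. Fat body genes numbered 1 higher and 1 lower of 4, and their sum was 1451 to 1511 TPM against 1408 to 1455 TPM. Rfabg alone averaged 1238 TPM of it in wild type and 1246 TPM in spo, and was not called. The called genes of this list changed in opposite directions. Mtp fell from 194.4 ± 2.91 to 114.7 ± 3.20 TPM (limma adjusted p = 2.04e-06). Adh rose from 16.3 ± 0.57 to 31.7 ± 3.07 TPM (limma adjusted p = 3.95e-05). Hemocyte genes numbered 1 higher and 4 lower of 7, with sums of 610 to 626 and 571 to 593 TPM.

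Lsp1alpha of the fat body and eater and He of the hemocytes had libraries at 0. Malpighian tubule genes numbered 1 higher and 2 lower of 6, with Irk2 and Uro at 0 in some libraries and sums of 400 to 408 and 380 to 399 TPM. Vha55 alone averaged 206 and 217 TPM of these sums. They hide ClC-a, which fell from 8.70 ± 0.24 to 0.771 ± 0.012 TPM (limma adjusted p = 8.51e-07). ClC-a lay below 1 TPM in every spo library, so it entered the test through its wild-type libraries alone. Salivary gland genes numbered 2 higher and 3 lower of 7, with sums of 606 to 622 and 569 to 603 TPM and none at 0. The part of any of these in the digestive enzyme differences was not tested.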

How the data were processed

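Per the submitters' processing notes, FastQC 0.11.2, STAR 2.5.3a, featureCounts, Subread and edgeR were used with the dm6 build. The sources used here do not give the gene annotation they used, whether counting was stranded, or how reads matching several genes were treated. The authors deposited TPM per gene for 6 libraries. They also deposited a table of their comparison with log2 fold change, log2 CPM, p-value, false discovery rate and a score (the likelihood ratio).

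TPM was tested with limma 3.58.1 in R 4.3.3 on log2(TPM + 1) with an intensity trend and genotype as the only term, over features that reached 1 TPM in 3 or more libraries. The scale understates changes of low genes. Whole reads were rebuilt from TPM and exon length (annotation of Ensembl release 115, dm6 coordinates). The annotated length gave whole reads, within 0.0001 reads, for 94.6% of the 14969 features that have one. For 972 features a length was searched until the reads came out whole, so that their reads, Jon74E's among them, are whole by construction, and 2 features gave none. Intervals from reads cover counting error only.

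The members and the comparison lists were chosen with earlier results of these data known. Every member is accounted for. Of each of 12 lists (195 written entries, 14 with no row), up to 4 called genes with the smallest adjusted p and up to 2 genes not called could be named. Hr46, Cyp4e1, Pde1c, spin, Mitf, yin, babo, lab, mex1, Myo31DF, bcd, tor, osk and the mannosidase genes were named after their values were seen. Alternatives were another pseudocount, no filter, a filter of 5 TPM, other scalings, the replicate block, library weights, voom on rebuilt reads and each library left out.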

Additional observations from a re-analysis of the deposited data

How the results depend on the processing

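The number of digestive enzyme genes called, 7, became 13 without the filter, which fits all 31, and 2 with a filter of 5 TPM, which leaves only Mal-A1 and Mal-A5. It was 6 or 7 under every other setting run, including 6 to 7 with 1 library left out, and the gene lost was Jon66Cii. Jon66Cii also lost its call with voom on rebuilt reads (0.05). Of the refits of the 7 genes, 87 kept the direction and the call, 6 lost the call (all Jon66Cii) and 0 turned direction. The replicate number was entered as a block because the genotypes share numbers. With the replicate block 6086 genes were called against 6185 without it, and 6 members, Jon66Cii having an adjusted p of 0.0601. The deviations from the genotype means correlated, for libraries of equal number, at -0.0275, 0.045 and 0.129, and replicate 1 did not correlate best with its own number, so the libraries were treated as unpaired. With 1 library left out, 5442 to 6469 genes were called. Genes under about 1 TPM rest on few reads, and differences there were often not detectable at this depth.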

Other observations

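A list of lysosomal genes and glycan-cutting enzymes, which also holds non-enzymes such as Lamp1, spin and the transcription factor Mitf, had 12 of 25 tested genes higher, 10 lower and a median log2 difference of 0.05. That is 88% called, against 61.7% of all tested features. Hexo2, a beta-hexosaminidase, rose from 12.9 ± 0.11 to 32.4 ± 4.01 TPM (SD, n = 3; limma adjusted p = 2.02e-05). CG9796, now called GILT1 and named for a thiol reductase of lysosomes, fell from 858 ± 5.64 to 505 ± 25.01 TPM. The lysosomal membrane protein gene Lamp1 was not called, at 890 ± 20.8 and 922 ± 44.98 TPM (adjusted p = 0.272).

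A list of transporters and sugar enzymes had 3 of 13 tested genes higher and 4 lower (53.8% called, against 61.7% of all tested features). Of these calls CG2930 (higher), mnd and yin (lower) are known or predicted amino acid or peptide transporters and not as sugar genes. The glucose transporter gene Glut1 rose from 22.9 ± 0.62 to 28.2 ± 1.12 TPM, and trehalase (Treh), which splits the blood sugar trehalose, fell from 21.0 ± 0.35 to 16.8 ± 0.28 TPM. Hexokinase A (Hex-A) stood at 45.5 ± 0.82 and 43.4 ± 0.32 TPM (adjusted p = 0.0559). Hex-A was called lower with median-of-ratios (0.022) and upper-quartile factors (0.0135) and with library weights (0.0233).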
